A study of Homo sapiens with 18 samples.

Results

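The Toll-like receptor genes examined here were 10 genes of microbial sensing and its first signalling steps: the receptors TLR2, TLR4 and TLR5, the co-receptors LY96 and CD14, the adaptors MYD88, TIRAP and TICAM1, and the kinases IRAK1 and IRAK2. They were picked by symbol as members of the pathway, with earlier results of these data known, and each had 1 row among the 55765 genes counted. Toll-like receptors recognise conserved microbial molecules: TLR2 responds to bacterial lipopeptides, TLR4 to lipopolysaccharide and TLR5 to flagellin. CD14 and MD-2, the product of LY96, present lipopolysaccharide to TLR4. Inside the cell, MyD88, with TIRAP as its bridge to some receptors, assembles the IRAK kinases and leads to NF-κB, whereas TICAM1, also called TRIF, couples TLR3 and TLR4 to interferon and NF-κB signalling.

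Messenger RNA was sequenced from OVCAR3, an established line of high-grade serous ovarian carcinoma, in 18 libraries that formed 6 groups of 3. In the first series cells received natural human non-specific IgA, human non-specific IgG or no antibody. In the second series they received IgA against BDNF or IgA against TSPAN7, both from immortalised tumour-derived B cells, or no antibody. Antibodies were given at 0.5 µg/mL for 24 h in medium with low serum, and the untreated cells of each series were compared only with the antibodies of that series. The 3 libraries of a group in the first series are described as separate experiments. The paper says in general that its experiments used biological replicates or were run independently, unless noted. For the second series it gives n = 3 and does not say that the libraries of a group came from separate cultures. The p-values of that series therefore measure a spread between libraries that may be technical. One cell line was used, so results hold for that line.

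Libraries of the first series held 27920733 to 42371474 counts and those of the second 39254350 to 47381836. Replicate 3 of non-specific IgA stood apart, with 19.1% of its counts from mitochondrial genes against 5.75% to 8.32% in the other 8 libraries of its series, and it was the shallowest library. Values without it are given beside most results for non-specific IgA that turn on it or that were called, and for IKBKB none was taken. The 8 epithelial and serous markers, such as EPCAM, PAX8 and MUC16, summed to 3858 to 6142 CPM in the first series, where CPM is the count relative to the library total, and from 3924 to 5790 CPM in the second. The 10 monocyte and macrophage markers, which mark the cells best known for CD14 and TLR4, summed to 1.28 to 2.46 CPM and 0.858 to 1.62 CPM. Of these 10, 5 had at most 3 counts throughout the first series and 4 throughout the second, and ITGAM, TYROBP, FCGR1A and AIF1 were at 0 in every library of the first. Others were present in every library. In the first series PTPRC had 10 to 56 counts, CD33 8 to 37 and CD68 5 to 28, beside 9 to 37 for CD14. In the second PTPRC had 6 to 24, CD68 10 to 26, CD33 4 to 11 and LYZ 4 to 18, beside 14 to 45 for CD14. The 6 B and plasma cell markers summed to 0.225 to 0.878 CPM and 0.119 to 0.459 CPM, and 4 fibroblast and endothelial markers to 19.0 to 30.2 CPM and 12.5 to 18.7 CPM. Some of these sums moved with a group. Epithelial markers summed to 3924 to 4143 CPM with TSPAN7 IgA against 4657 to 5046 in untreated cells and 4659 to 5790 with BDNF IgA. Fibroblast and endothelial markers, mostly COL1A1, summed to 22.9 to 30.2 CPM with non-specific IgA against 19.2 to 20.9 with IgG. Both ranges overlapped that of untreated cells, 19.0 to 25.4. Monocyte and macrophage markers summed to 1.39 to 1.62 CPM with BDNF IgA against 0.858 to 1.19 in untreated cells. The part of these shifts in the results below was not tested.

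In untreated OVCAR3 cells IRAK1, TICAM1, MYD88 and IRAK2 had higher levels than any of the receptors, whereas TIRAP lay below TLR5. In normalised counts per kb of annotated exons, the mean of the untreated libraries was highest for IRAK1, at 1260 in the first series (1872 in the second), followed by TICAM1 at 214 and 330. MYD88 followed with 87.7 and 86.9 and IRAK2 with 46.8 and 86.5, and the libraries of these neighbours overlapped in the second series. Lower levels were measured for TLR5, at 23.7 and 31.2, for TIRAP, at 18.1 and 27.7, and for CD14, at 15.7 and 16.01. TLR2 had 1.94 and 7.28, and TLR4 and LY96 were lowest. The untreated libraries of neighbours in this order also overlapped for TLR5 and TIRAP, and for CD14 and TLR2, in the second series. In the first they overlapped for TIRAP and CD14, and for TLR2 and LY96. The lengths covered the exons of all annotated isoforms of a gene, and part of this order rests on them. Their GENCODE release was not the one the paper names for counting. Without division by length, untreated IRAK2 lay below TLR5 in the first series, with means of 160 and 183 normalised counts. Normalised counts, which bring the libraries of a series to their mean effective size, are used for all values per library below.

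**Figure D1:**
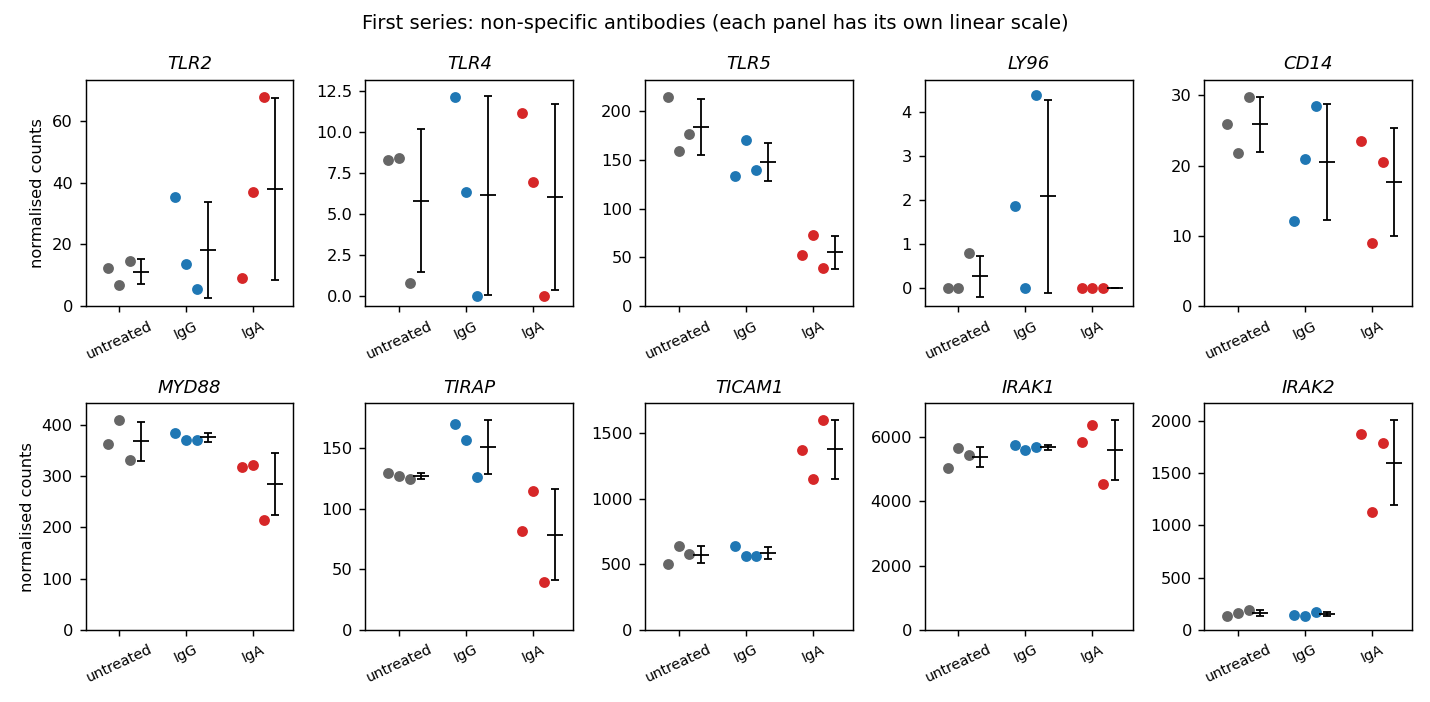
Normalised counts of the 10 genes in the first series, for untreated, IgG-treated and IgA-treated OVCAR3 cells, with 1 point per library and the mean ± SD of 3 libraries beside the points (linear axes, 1 scale per gene). The 3 IgA libraries lie above all others for IRAK2 and TICAM1 and below all others for TLR5, MYD88 and TIRAP.

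The first question was whether non-specific IgA changed these genes relative to IgG, an antibody of another isotype. IRAK2 and TICAM1 rose and TLR5 and TIRAP fell, which is 4 of the 8 genes tested, and 24.2% of all 18012 genes tested were called (edgeR adjusted p under 0.05), 12.6% higher and 11.6% lower. Against untreated cells, 2 of 8 rose, IRAK2 and TICAM1, and 1 fell, TLR5, beside 25% of all genes, 12.9% higher and 12.1% lower. The IgA libraries did not overlap the IgG libraries for 5 genes, 2 above and 3 below, beside 40.3% of all genes, 19.7% above and 20.6% below. Nor did they overlap the untreated libraries for 5 genes, 2 above and 3 below, beside 39.9% of all genes, 19.8% above and 20.1% below. The median log2 fold change of the 8 tested genes was −0.12 against IgG, and that of all genes −0.015. The 2 comparisons share the IgA libraries. With scaling by library size alone, 873 genes were called higher and 3631 lower for IgA against IgG, in place of 2265 and 2095, and IRAK2, TICAM1, TLR5 and TIRAP kept their directions and calls. TLR4 and LY96 fell below the count filter and were not tested.

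IRAK2, the kinase that sustains signalling downstream of MyD88, changed most. It had 1877, 1131 and 1791 normalised counts in the 3 IgA libraries, 142, 137 and 176 in the IgG libraries and 130, 160 and 192 in the untreated libraries. Every IgA library was thus far above every control library, and the 2 control groups overlapped. The log2 fold change was 3.40 ± 0.22 (SE, n = 3 against 3), a 10.6-fold difference, against IgG, with an edgeR adjusted p of 7.57e-07. Against untreated cells it was 3.31 with an edgeR adjusted p of 9.96e-07. Without IgA replicate 3 the log2 fold changes were 3.31 and 3.22.

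TICAM1, the adaptor of the MyD88-independent branch, had 1375, 1153 and 1599 normalised counts with IgA, 642, 560 and 562 with IgG and 505, 636 and 582 in untreated cells. The lowest IgA library was above the highest control library. Relative to IgG, TICAM1 rose by 1.22 ± 0.14 (SE) on the log2 scale, or 2.34-fold (edgeR adjusted p = 1.03e-04) and by 1.26 against untreated cells (edgeR adjusted p = 7.91e-05). Without IgA replicate 3 the differences were 1.10 and 1.13.

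TLR5, the flagellin receptor, moved the other way. Its normalised counts were 52.7, 72.9 and 39.5 with IgA, 133, 170 and 139 with IgG and 215, 159 and 176 in untreated cells, from 25 to 73 raw counts in the IgA libraries. All 3 IgA libraries were below all 6 controls. The log2 fold change was −1.40 ± 0.26 (SE) against IgG (2.65-fold lower, edgeR adjusted p = 0.00215) and −1.71 against untreated cells (3.28-fold lower, edgeR adjusted p = 5.42e-04). Without IgA replicate 3 these values were −1.23 and −1.54.

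The stretches of the genome just before the annotated starts of these 3 genes are shown because, among the called genes of the 10, these had the largest changes in the first series. Each is 250 bases of RefSeq sequence on the gene's strand, ending at the base before the start, and each matched GRCh37 exactly once. The positions were chr3:10206353-10206602 on the plus strand for IRAK2, chr19:4831725-4831974 on the minus strand for TICAM1 and chr1:223316591-223316840 on the minus strand for TLR5. Capitals mark a match to an NF-κB consensus.
IRAK2: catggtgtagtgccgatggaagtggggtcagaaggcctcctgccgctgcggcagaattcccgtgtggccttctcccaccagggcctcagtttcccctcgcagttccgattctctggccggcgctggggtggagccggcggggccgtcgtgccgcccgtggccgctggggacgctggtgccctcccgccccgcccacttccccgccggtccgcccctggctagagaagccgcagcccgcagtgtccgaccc
TICAM1: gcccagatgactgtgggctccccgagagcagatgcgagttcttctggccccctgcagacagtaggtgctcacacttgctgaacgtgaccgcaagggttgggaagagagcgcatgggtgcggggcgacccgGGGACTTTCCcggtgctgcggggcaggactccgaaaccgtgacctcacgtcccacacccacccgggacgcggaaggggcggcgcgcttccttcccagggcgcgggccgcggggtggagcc
TLR5: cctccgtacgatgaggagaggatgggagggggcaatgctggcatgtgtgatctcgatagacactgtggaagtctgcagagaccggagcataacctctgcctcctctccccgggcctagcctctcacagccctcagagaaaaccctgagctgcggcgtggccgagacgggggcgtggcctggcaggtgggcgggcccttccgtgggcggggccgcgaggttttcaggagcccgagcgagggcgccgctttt
Both strands were searched for the NF-κB consensus, for the AP-1 motif TGANTCA and for an interferon-type repeat, GAAA followed by 2 bases and GAAA. The TICAM1 window held 1 NF-κB match, GGGACTTTCC, from 120 to 111 bases before the start, and the IRAK2 and TLR5 windows held none of the 3 motifs. Windows of this length were used for 8 of the 10 genes, and among the other 5 IRAK1 had 1 NF-κB match, CD14 1 AP-1 match and MYD88 1 match to the interferon-type repeat. The windows of the 3 printed genes held no annotated exonic bases. In the other 5, annotated exons of any gene covered 246 of 250 bases for TLR4, 210 for TLR2, 117 for CD14, 109 for MYD88 and 70 for IRAK1. By the GENCODE coordinates given below, the CD14 and MYD88 matches lie within the annotated gene and not before its start. Of 35116 RefSeq promoter windows of the same length, 9.961% held an NF-κB match, 6.573% an AP-1 match and 3.021% the interferon-type repeat. A match of this kind describes letters and not a bound site.

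TIRAP, the bridging adaptor of TLR2 and TLR4, had 81.8, 115 and 39.5 normalised counts with IgA, 170, 157 and 126 with IgG and 130, 127 and 125 in untreated cells. The IgA libraries were again the lowest, and they were spread more widely than the controls. The log2 fold change against IgG was −0.91 ± 0.31 (SE), with an edgeR adjusted p of 0.0453. That call was lost when any of 5 of the 6 libraries was left out, with edgeR adjusted p between 0.0635 and 0.127. The value was −0.62 without IgA replicate 3, −0.93 without IgA replicate 1, and −0.83, −0.89 and −1.03 without IgG replicate 1, 2 and 3. Without IgA replicate 2 it was −1.29 and was called (edgeR adjusted p = 0.00899). Against untreated cells the log2 fold change was −0.67, which was not called (edgeR adjusted p = 0.130). Without IgA replicate 3 it was −0.37, and without IgA replicate 2 it was −1.04 and called (edgeR adjusted p = 0.0243). In the GENCODE annotation, 12.1% of TIRAP exonic bases lie opposite genes on the other strand, TIRAP-AS1 among them, and no source used here states a strand setting for the counting.

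MYD88, the adaptor shared by TLR2, TLR4 and TLR5, had 317, 322 and 215 normalised counts with IgA, 385, 371 and 370 with IgG and 361, 409 and 332 in untreated cells. The IgA libraries lay below the controls but only narrowly so in 2 of 3 cases. The log2 fold changes of −0.39 ± 0.17 (SE) and −0.36 were not called (edgeR adjusted p = 0.120 and 0.149), and without IgA replicate 3 they were −0.23 and −0.20. With scaling by library size alone, which shifted the median of all genes by −0.23, the value against IgG was −0.61 and was called (edgeR adjusted p = 0.0474).

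IRAK1, the most abundant of the 10, had 5835, 6365 and 4546 normalised counts with IgA, 5746, 5596 and 5681 with IgG and 5021, 5651 and 5440 in untreated cells. The IgA libraries lay on both sides of the controls. Its log2 fold change against IgG was −0.023, with a 95% interval of −0.28 to 0.23 (edgeR adjusted p = 0.907). Without IgA replicate 3 it was 0.10 and was not called (edgeR adjusted p = 0.441). As a share of the IRAK1 counts of the same library, IRAK2 counts made up 17.8% to 39.4% with IgA, 2.46% to 3.09% with IgG and 2.58% to 3.52% in untreated cells. TICAM1 had 3.58 to 7.44 counts for each MYD88 count with IgA, 1.51 to 1.67 with IgG and 1.40 to 1.75 in untreated cells. The highest value of both ratios came from IgA replicate 3, and the other 2 IgA libraries had 32.2% and 17.8% for the first ratio and 4.33 and 3.58 for the second. These ratios need no scaling between libraries. They were chosen after the values had been seen and were not tested.

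**Figure D2:**
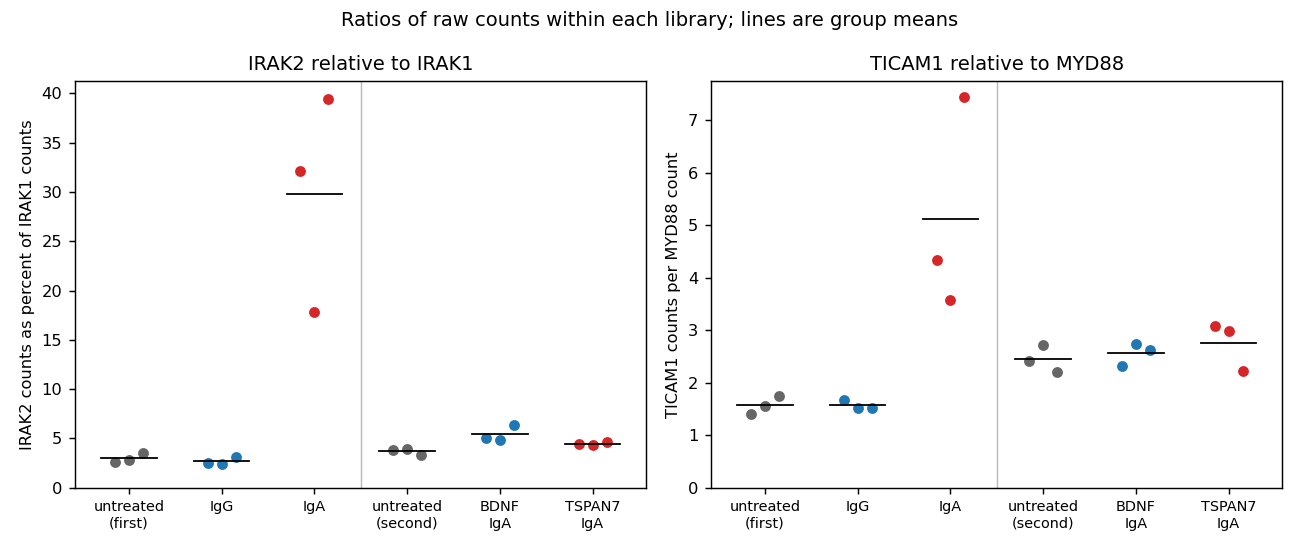
Raw counts of IRAK2 as a percent of IRAK1 counts (left) and TICAM1 counts per MYD88 count (right) in each of 18 libraries, with group means as lines and the grey line separating the 2 series. Within the first series both ratios are highest in the 3 libraries of non-specific IgA. In those libraries they span 17.8% to 39.4% and 3.58 to 7.44, with IgA replicate 3 the highest in each.

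TLR2 and CD14 were close to the limit of what these libraries could measure. TLR2 had 8, 37 and 43 raw counts with IgA, 38, 15 and 5 with IgG and 12, 8 and 18 in untreated cells. The groups overlapped, and the first IgA library was as low as the controls. Its log2 fold change was 1.02 against IgG, with a 95% interval of −0.58 to 2.62 (edgeR adjusted p = 0.340; 0.33 without IgA replicate 3), and 1.73 against untreated cells (edgeR adjusted p = 0.117). The latter was called without IgA replicate 1, at 2.198 (edgeR adjusted p = 0.0459), and without the count filter, at 1.71 (edgeR adjusted p = 0.0422), and it was 1.04 and not called without IgA replicate 3. CD14 had 21, 9 and 13 raw counts with IgA, 13, 23 and 26 with IgG and 25, 26 and 37 in untreated cells. Its log2 fold changes of −0.22 and −0.56 were not called, and the 95% interval against IgG, −1.37 to 0.93, leaves room for changes of more than 1 log2 unit.

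TLR4 and LY96 were at or near the detection limit. TLR4 had 10, 7 and 0 raw counts with IgA, 13, 7 and 0 with IgG and 8, 10 and 1 in untreated cells, and 5.11% of its annotated exonic bases are shared with another gene on the same strand. No IgA library had a LY96 count, the IgG libraries had 2, 0 and 4 and the untreated libraries 0, 0 and 1. A count of 0 in an IgA library allows a level of up to 0.0842 to 0.107 CPM (3 counts, counting error only). Differences in these genes were not detectable at this depth. Fewer cells expressing a gene and less messenger RNA per cell cannot be told apart in these bulk libraries, for these and for all other genes.

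Non-specific IgG was compared with untreated cells to show the effect of that antibody on its own. None of the 8 tested genes was called by edgeR, none had an unadjusted p under 0.05, and DESeq2 called none. Among all 18012 genes 0% were called, and 0.494%, or 89 genes, had an unadjusted p under 0.05. IRAK2 had a log2 fold change of −0.089 (95% interval −0.55 to 0.37), TICAM1 of 0.034 (−0.27 to 0.34) and TLR5 of −0.31 (−0.83 to 0.21). For none of the 8 did the IgG libraries lie wholly above or below the untreated libraries, beside 6.75% of all genes, 3.32% above and 3.43% below.

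**Figure D3:**
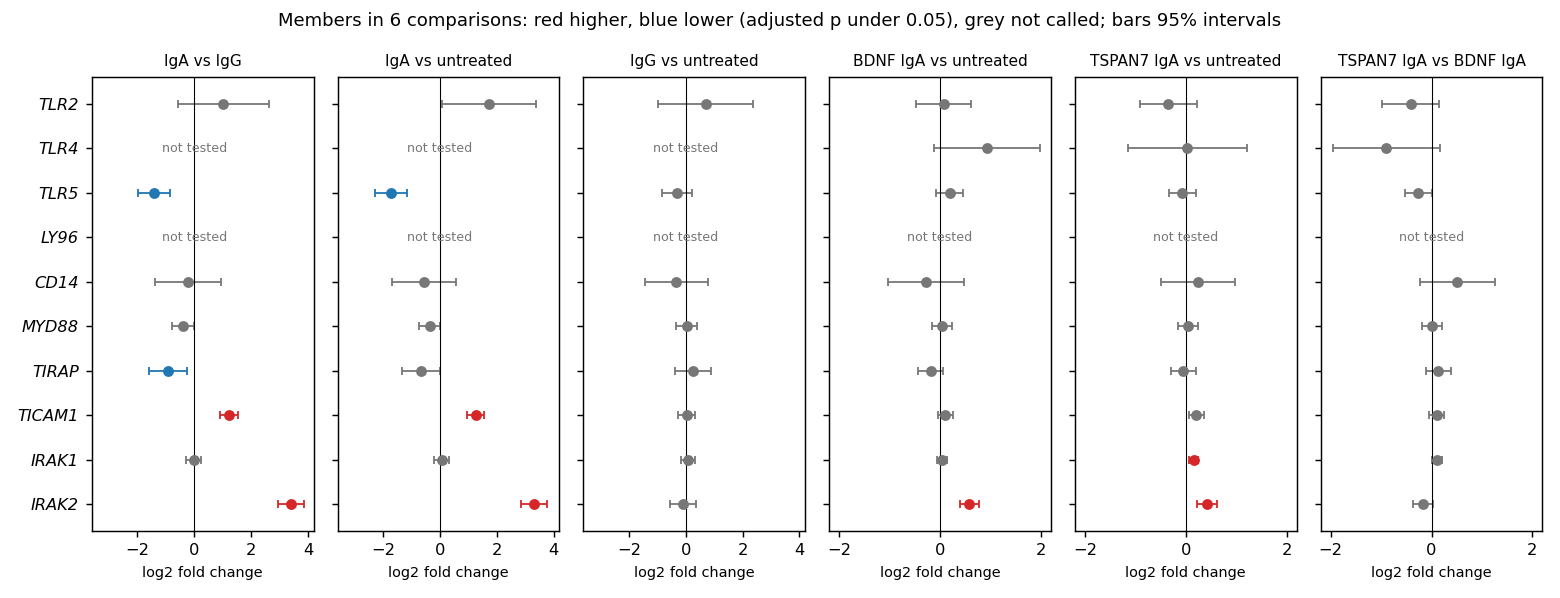
Log2 fold changes of the tested genes of the 10 in 6 comparisons (LY96 was tested in none and TLR4 only in the second series), with 95% intervals from edgeR; red and blue mark genes called higher and lower (adjusted p under 0.05), grey those not called, and the axes of the first series are wider. IRAK2 is called higher in both comparisons of non-specific IgA and in both comparisons of antigen-specific IgA with untreated cells, from 3.40 down to 0.42.

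In the second series the question was whether IgA against a tumour antigen changed the same genes. IRAK2 rose with both antibodies, IRAK1 rose with TSPAN7 IgA, and no gene of the 10 fell. With BDNF IgA 1 of 9 tested genes was called, beside 7.67% of all 18732 genes, 4.49% higher and 3.18% lower. With TSPAN7 IgA 2 of 9 were called, beside 8.54% of all genes, 4.46% higher and 4.08% lower. Both comparisons use the same untreated libraries. These shares depended on single libraries: without BDNF IgA replicate 2, 1505 genes were called higher and 1293 lower with BDNF IgA, in place of 841 and 596, and without BDNF IgA replicate 3, 429 and 305. With TSPAN7 IgA the counts were lowest without TSPAN7 IgA replicate 2, at 429 higher and 328 lower in place of 836 and 764. The median log2 fold changes of the 9 genes were 0.071 and 0.037, and those of all genes 0.0022 and −0.00072. BDNF IgA libraries did not overlap untreated libraries for 4 of 9 genes, 3 above and 1 below, beside 24.8% of all genes, 12.8% above and 12% below. TSPAN7 IgA libraries did so for 2 of 9, both above, beside 28.4% of all genes, 14.4% above and 14% below.

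**Figure D4:**
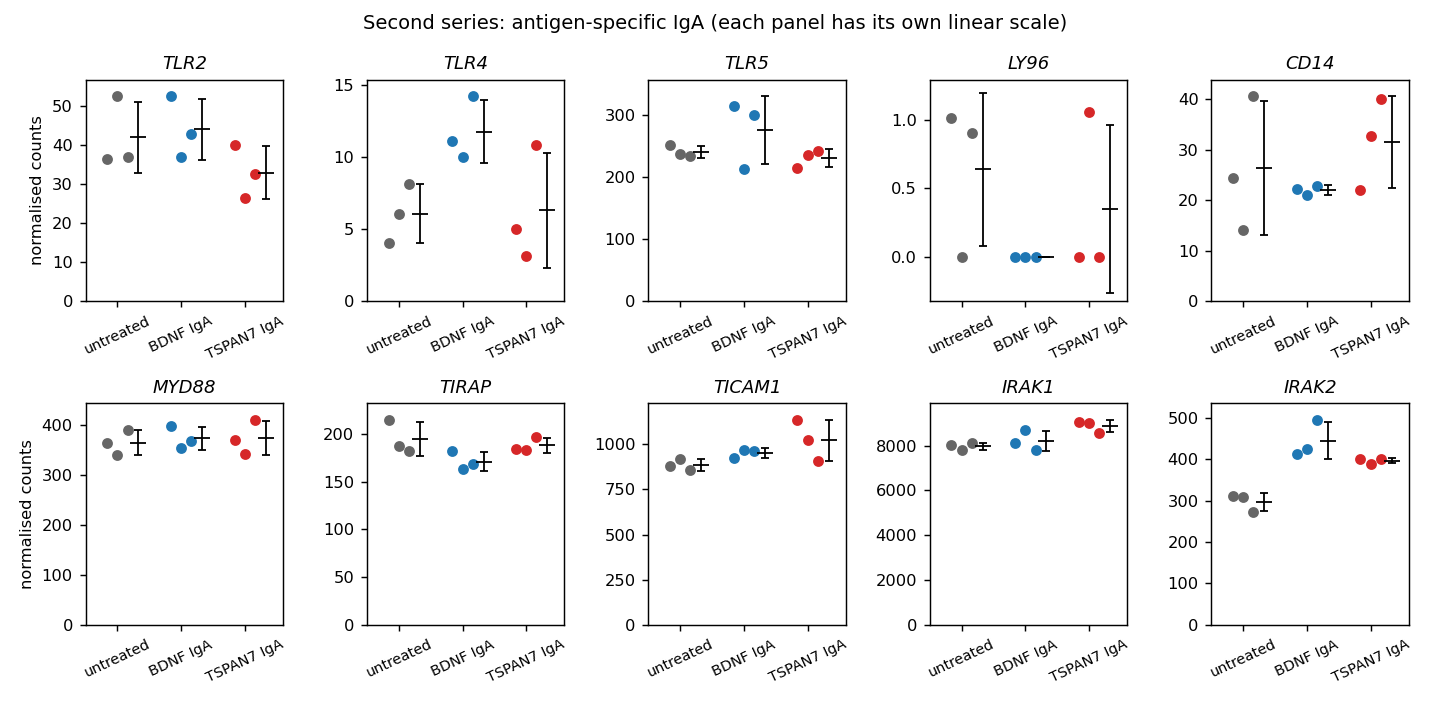
Normalised counts of the 10 genes in the second series, for untreated cells and cells given BDNF IgA or TSPAN7 IgA, with 1 point per library and the mean ± SD of 3 libraries (linear axes, 1 scale per gene). IRAK2 lies between 389 and 495 in the 6 antibody libraries and between 272 and 311 in the untreated libraries.

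IRAK2 had 412, 426 and 495 normalised counts with BDNF IgA, 400, 389 and 399 with TSPAN7 IgA and 311, 307 and 272 in untreated cells. All 6 antibody libraries were above all 3 untreated libraries. The log2 fold change was 0.58 ± 0.095 (SE) with BDNF IgA (edgeR adjusted p = 4.77e-04) and 0.42 ± 0.096, or 1.34-fold, with TSPAN7 IgA (edgeR adjusted p = 0.00780). Without untreated replicate 3 the TSPAN7 value was 0.36 and was not called (edgeR adjusted p = 0.0536). Between the antibodies the difference was −0.17, with a 95% interval of −0.36 to 0.028 (edgeR adjusted p = 0.310). As a share of IRAK1 counts, IRAK2 made up 4.88% to 6.33% with BDNF IgA, 4.32% to 4.66% with TSPAN7 IgA and 3.35% to 3.94% in untreated cells. The IRAK2 responses of the 2 series were not tested against each other, because the tables are separate.

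IRAK1 had 9072, 9010 and 8569 normalised counts with TSPAN7 IgA, 8119, 8716 and 7820 with BDNF IgA and 8043, 7803 and 8105 in untreated cells. The TSPAN7 IgA libraries lay above the untreated libraries, while the BDNF IgA libraries overlapped both. The difference between TSPAN7 IgA and untreated cells was 0.15 ± 0.046 (SE) on the log2 scale, or 1.11-fold (edgeR adjusted p = 0.0391). It was not called without TSPAN7 IgA replicate 1 or 2 (0.14 and 0.15) or without untreated replicate 1, 2 or 3 (0.16, 0.14 and 0.17), with edgeR adjusted p from 0.0765 to 0.153. Between TSPAN7 IgA and BDNF IgA the difference was 0.11 (edgeR adjusted p = 0.142), and without BDNF IgA replicate 2 it was 0.16 and was called (edgeR adjusted p = 0.0132).

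None of the adaptors MYD88, TIRAP and TICAM1 was called in the second series. TICAM1 had 1136, 1023 and 910 normalised counts with TSPAN7 IgA, 923, 971 and 964 with BDNF IgA and 880, 920 and 856 in untreated cells. One TSPAN7 IgA library overlapped the untreated libraries, and the BDNF IgA libraries lay just above them. The log2 fold change was 0.21 ± 0.073 (SE) with TSPAN7 IgA (edgeR adjusted p = 0.0802) and 0.11 with BDNF IgA (edgeR adjusted p = 0.435). The TSPAN7 value was called without TSPAN7 IgA replicate 3, at 0.29 (edgeR adjusted p = 0.0234), and in a fit of these 6 libraries alone, at 0.21 (edgeR adjusted p = 0.0468). MYD88 ranged from 339 to 410 normalised counts over the 9 libraries, with log2 fold changes of 0.035 and 0.037 and 95% intervals within −0.16 and 0.24. TIRAP ranged from 163 to 215, with −0.19 for BDNF IgA and −0.050 for TSPAN7 IgA, neither called.

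Among the receptors of the second series, TLR5 had 314, 213 and 300 normalised counts with BDNF IgA, 215, 235 and 243 with TSPAN7 IgA and 252, 238 and 234 in untreated cells. BDNF IgA replicate 2 was the lowest of the 9 libraries and the other 2 of its group the highest. The log2 fold changes were 0.19 with BDNF IgA (edgeR adjusted p = 0.402) and −0.065 with TSPAN7 IgA, whose 95% interval was −0.33 to 0.20. Without BDNF IgA replicate 2 the first was 0.35 and was called (edgeR adjusted p = 0.0385), and so was the difference between TSPAN7 IgA and BDNF IgA, which was −0.26 with all libraries (edgeR adjusted p = 0.238) and −0.41 without that one (edgeR adjusted p = 0.0119). TLR2 had 25 to 52 raw counts, TLR4 3 to 15 and CD14 14 to 45, and none was called. The difference in TLR4 between BDNF IgA, with 11, 10 and 15 raw counts, and untreated cells, with 4, 6 and 9, was 0.93 with a 95% interval of −0.12 to 1.98 (edgeR adjusted p = 0.297). LY96 had at most 1 count in any of the 9 libraries, and its absence from all 3 BDNF IgA libraries allows up to 0.0677 to 0.0716 CPM in each.

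TSPAN7 IgA and BDNF IgA were then compared directly. None of the 9 tested genes was called by edgeR or by DESeq2, beside 7.92% of all genes, 3.42% higher and 4.5% lower. One, IRAK1, had an unadjusted p under 0.05 (0.0227), as did 22.5% of all genes. The count of all genes was 641 higher and 843 lower, and it was 1554 and 1722 without BDNF IgA replicate 2, 196 and 286 without BDNF IgA replicate 3 and 196 and 308 without TSPAN7 IgA replicate 2. For IRAK2 the TSPAN7 IgA libraries lay below the BDNF IgA libraries and for TIRAP above them, beside 23.6% of all genes that did not overlap, 11.5% above and 12.1% below.

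A list of 39 other genes of the pathway was read in the same fits to place the 10 among their partners, and 35 of them were tested in each series. TLR7, TLR8 and the lipopolysaccharide-binding protein gene LBP fell below the filter in both series, TICAM2 in the first and TLR10 in the second. Non-specific IgA against IgG raised 4 and lowered 5 of the 35, or 25.7%, beside 24.2% of all genes. With BDNF IgA 4 rose and 0 fell, or 11.4%, beside 7.67% of all genes, and with TSPAN7 IgA 4 rose and 1 fell, or 14.3%, beside 8.54%. Between IgG and untreated cells edgeR called 0 of 35, and 0 had an unadjusted p under 0.05, in the same fit with its shared spread.

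The calls for non-specific IgA against IgG are given by role, and are to be read beside the 12.6% of all genes that were called higher and the 11.6% called lower. Of 6 brakes on the pathway 2 rose and 0 fell. TNFAIP3, the NF-κB target that encodes the ubiquitin-editing enzyme A20, had a mean of 5640 ± 1411 normalised counts (SD, n = 3) with IgA against 312 ± 33.4 with IgG, a log2 fold change of 4.17 (edgeR adjusted p = 2.71e-08). Its partner TNIP1 had 5528 ± 1801 against 1904 ± 51.6, a log2 fold change of 1.54 (edgeR adjusted p = 9.59e-05). Of 3 chaperones and trafficking factors tested, HSP90B1, the endoplasmic reticulum chaperone that folds Toll-like receptors, rose by 0.96 (edgeR adjusted p = 2.28e-04). These 3 values were 3.96, 1.26 and 0.79 without IgA replicate 3, and all were called.

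Of 8 kinases 3 fell and 0 rose, beside the same shares of all genes. RIPK1, a kinase that TICAM1 recruits, had a log2 fold change of −0.84 (edgeR adjusted p = 0.00434) and IKBKE of −0.62 (edgeR adjusted p = 0.00827). IKBKB, the third, had −0.60 (edgeR adjusted p = 0.0174) and is named after its values were seen. Against untreated cells IKBKB had −0.58 (edgeR adjusted p = 0.0204), although the libraries overlapped. No value without IgA replicate 3 was taken for IKBKB. Of 5 other receptors tested 1 fell, TLR3, the receptor for double-stranded RNA that signals through TICAM1, with 124 ± 12.2 normalised counts against 267 ± 28.9 and a log2 fold change of −1.11 (edgeR adjusted p = 0.00110). Of 11 genes of the TRAF, TAB and ubiquitin arm, PELI2, which encodes an E3 ligase of the IRAK kinases, fell by 1.03 on the log2 scale (edgeR adjusted p = 0.00304). TAB2 rose by 0.35 (edgeR adjusted p = 0.0305), a call that was lost without IgA replicate 3 (0.26) and when IgG replicate 1 or 2 was left out (0.30 and 0.32). IRAK3, the kinase-dead inhibitor of the IRAK complex, was low, with a mean of 5.96 ± 5.27 normalised counts against 14.1 ± 4.10 and no call (edgeR adjusted p = 0.334). Against untreated cells 3 of the 35 rose and 5 fell, or 22.9%, beside 25% of all genes, 12.9% higher and 12.1% lower. TNFAIP3 had a log2 fold change of 4.10, TNIP1 of 1.495, HSP90B1 of 0.93, TLR3 of −1.10, PELI2 of −0.99, RIPK1 of −0.85 and IKBKE of −0.72. The largest edgeR adjusted p of these 7 was 0.00360. Without IgA replicate 3 the values against IgG were −1.16 for TLR3, −0.92 for PELI2, −0.74 for RIPK1 and −0.55 for IKBKE, and those against untreated cells −1.15, −0.88, −0.75 and −0.65, all called.

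**Figure D5:**
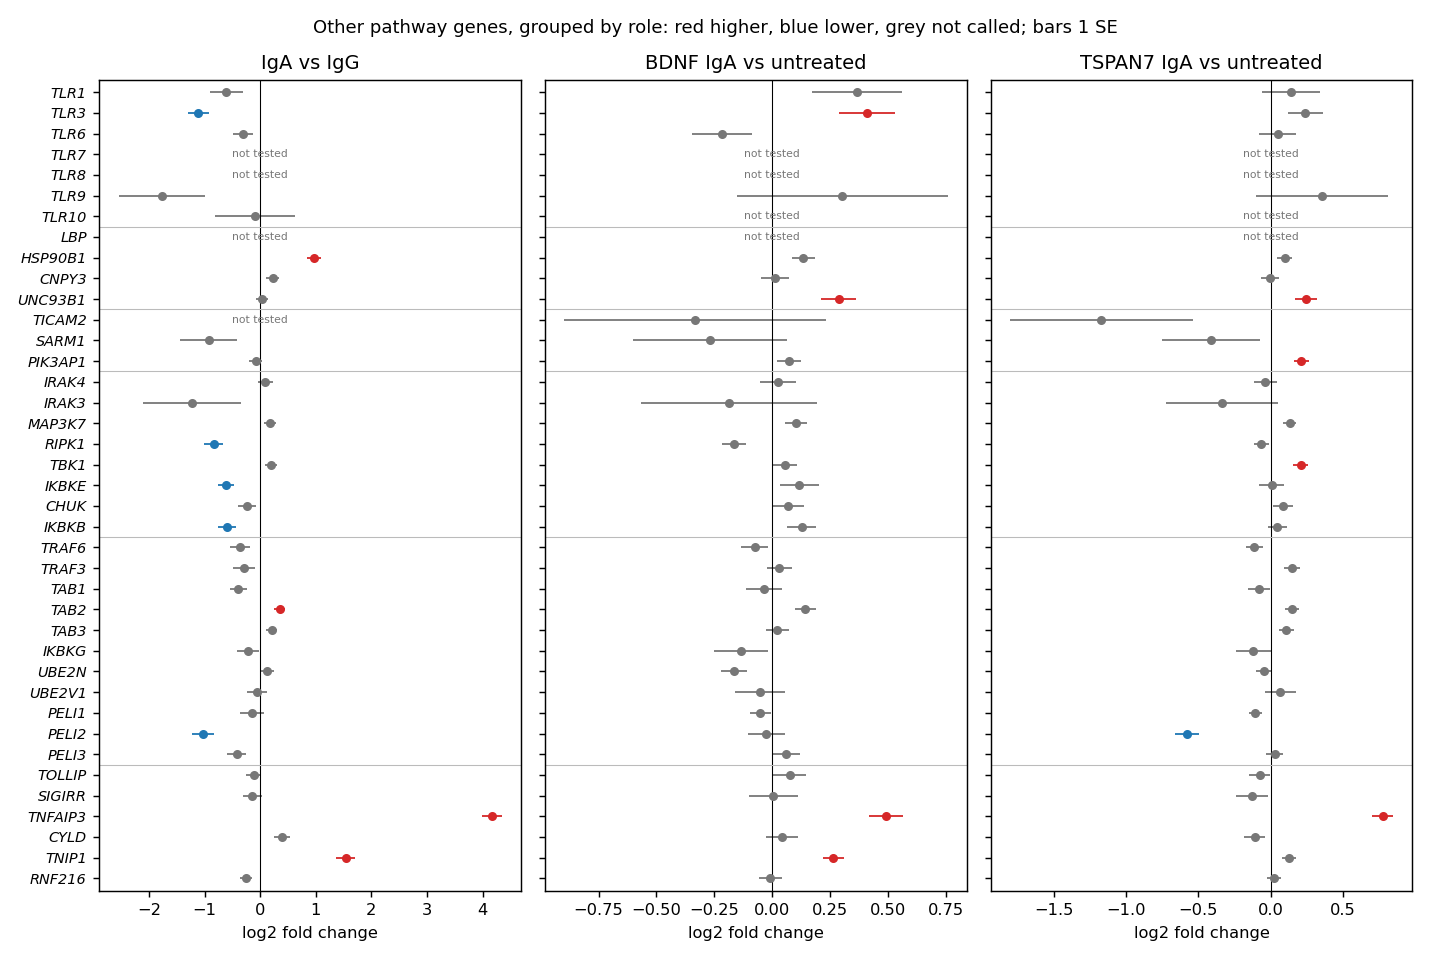
Log2 fold changes (points) with 1 SE (bars) of the 39 other pathway genes, ordered by role from receptors at the top to brakes at the bottom, in 3 comparisons with separate axes; red and blue mark genes called higher and lower by edgeR and grey those not called. TNFAIP3 is called higher in all 3, at 4.17, 0.49 and 0.77.

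In the second series TNFAIP3 rose by 0.49 with BDNF IgA (931 ± 56.5 normalised counts against 664 ± 64.3, edgeR adjusted p = 1.92e-04) and by 0.77 with TSPAN7 IgA (1134 ± 26.7, edgeR adjusted p = 2.83e-07). The difference between the antibodies was 0.28 (edgeR adjusted p = 0.0166), a call that was lost without BDNF IgA replicate 1 (0.25), TSPAN7 IgA replicate 1 (0.27) or TSPAN7 IgA replicate 2 (0.28). TNIP1 rose by 0.26 with BDNF IgA (edgeR adjusted p = 0.00104). PELI2 fell with TSPAN7 IgA, from 1595 ± 183 to 1071 ± 92.8 normalised counts, a log2 fold change of −0.58 (edgeR adjusted p = 9.03e-05), and TSPAN7 IgA against BDNF IgA gave −0.55 (edgeR adjusted p = 3.00e-04). It was the 1 gene of the 35 that fell in each of these comparisons.

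Other calls in the second series were small. TLR3 had a log2 fold change of 0.41 with BDNF IgA (edgeR adjusted p = 0.0401), a call that was lost without BDNF IgA replicate 1 or 3 (0.45 and 0.23) and without untreated replicate 1, 2 or 3 (0.47, 0.45 and 0.31). With TSPAN7 IgA it was 0.24 and was not called (edgeR adjusted p = 0.262). UNC93B1, which carries endosomal receptors such as TLR3, had 0.29 with BDNF IgA, lost without BDNF IgA replicate 3 (0.24) and without untreated replicate 1 or 3 (0.27 and 0.26). With TSPAN7 IgA it had 0.24 (edgeR adjusted p = 0.0498), lost without TSPAN7 IgA replicate 1 or 2 (0.14 and 0.30) and without untreated replicate 1, 2 or 3 (0.23, 0.29 and 0.21). PIK3AP1, an adaptor that links Toll-like receptors to phosphoinositide 3-kinase, and TBK1, the kinase that activates IRF3, each had 0.21 with TSPAN7 IgA. PIK3AP1 lost its call without TSPAN7 IgA replicate 1 or 2 (0.19 and 0.21) and without untreated replicate 1 (0.19), and TBK1 without TSPAN7 IgA replicate 2 or 3 (0.19 and 0.21) and without untreated replicate 2 or 3 (0.21 and 0.17). IRAK3 had −0.19 and −0.34, neither called.

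The genes whose pattern over the 9 libraries of the first series was most like that of IRAK2, by the root mean square difference of mean-centred log2 CPM, were MAFF (0.22), G0S2 (0.30) and DUSP5 (0.35), where IRAK2 itself varied with an SD of 1.69. For TLR5, with an SD of 0.85, they were FST (0.17), C10orf128 (0.19) and KCNE3 (0.19). Between IgA and IgG the log2 fold changes were 3.30 to 3.60 for the genes like IRAK2 and −1.69 to −1.44 for those like TLR5. The likeness is a description over 9 libraries in 3 groups.

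In GRCh37 coordinates of GENCODE, IRAK2 lies at chr3:10206603-10285429, MYD88 at chr3:38180043-38184515, TLR2 at chr4:154605222-154627412 and TLR4 at chr9:120466453-120487013, and TIRAP at chr11:126152392-126168740, all on the plus strand. TLR5 lies at chr1:223282746-223316590, CD14 at chr5:140011313-140013285, TICAM1 at chr19:4815944-4831724 and IRAK1 at chrX:153275957-153285353, on the minus strand. Counts were summed over the annotated exons of each gene, untranslated parts included, so transcript isoforms were not separated.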

How the data were processed

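RNA from OVCAR3 cells was sequenced as paired-end reads in 18 libraries. Per the paper's methods, the authors trimmed reads with cutadapt 1.8.1, used STAR for alignment to GRCh37 and featureCounts with Gencode genes for counting unique alignments, while the submitters' processing notes also list HTSeq 0.6.1 and bcl2fastq 2.20.0.422. The strand setting was not given in the sources used here. The deposited values were raw counts with no normalisation, in 1 table per series, and the authors tested them with DESeq2. The labels and methods gave 24 h of treatment, and another description in the supplement gave a shorter time.

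From the 57820 rows of the second table, 2055 exact duplicates were dropped (1.99% to 2.46% of a library), which left the 55765 symbols of the first. Chi-square per degree of freedom between replicates was at least 3.91, above sampling noise, so no library was treated as a copy. It was largest for non-specific IgA, at 67.0 between replicates 1 and 2, 184 between 1 and 3 and 232 between 2 and 3. Every pair of the other groups had at most 25.0, so the IgA group was more variable even without its replicate 3. Each series was fitted with its 9 libraries in edgeR 4.0.16 (R 4.3.3) by its two-sided quasi-likelihood F test after filterByExpr and TMM scaling, p-values were adjusted by Benjamini-Hochberg over all genes tested in a comparison, and genes were called at an adjusted p under 0.05. The SE was taken from F and the log2 fold change, whose absolute ratio to √F it is. In simulated data with 200 genes changed by 1.5 on the log2 scale, the fit recovered 93% for IgA against IgG (17526 genes) and 99% for BDNF IgA against untreated cells (18384 genes), and 7% and 6.60% of its calls were false. The changed genes were drawn only from those above a set mean CPM, which TLR2, TLR4, LY96 and CD14 did not reach. They were also far fewer than the 4360 genes called for IgA against IgG. These rates therefore do not describe the low genes or data with so many changes. Alternatives were DESeq2 1.42.0, other scalings and filters, mitochondrial genes left out, a replicate block, fits of 6 libraries and each library left out.

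All 10 genes were named whatever their values. From the list of 39 pathway genes, up to 4 called genes with the largest change in each direction were named, plus TNFAIP3, IRAK3 and TLR3. Nearest patterns were sought for the 2 genes of the 10 with the largest SD and a mean of at least 50 normalised counts. The genes and lists were chosen with earlier results of these data known. Reads carried no stated molecular identifiers, so detection limits cover counting error only. A promoter entry was used for 8 of the 10 genes.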

Additional observations from a re-analysis of the deposited data

How the results depend on the processing

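Of the 10 calls among the receptor, adaptor and kinase genes, over 140 values under the alternatives, 128 stayed called in the same direction, 12 were no longer called and 0 changed sign. Over all 51 tested differences of these genes, 662 of 710 values kept both their sign and their status as called or not called. With the sign kept, 12 lost and 9 gained a call. The other 27 changed sign, none of them in a called difference. With 1 library left out, signs changed for IgA against IgG (−0.51 to 0.11 for CD14, −0.13 to 0.10 for IRAK1), IgA against untreated cells (−0.052 to 0.18 for IRAK1), IgG against untreated cells (−0.21 to 1.12 for TLR2, −0.050 to 0.11 for TICAM1, −0.078 to 0.11 for TLR3, −0.041 to 0.11 for MYD88, −0.22 to 0.058 for IRAK2), BDNF IgA against untreated cells (−0.072 to 0.26 for TLR2, −0.013 to 0.087 for MYD88, −0.0057 to 0.074 for IRAK1, −0.57 to 0.19 for CD14), TSPAN7 IgA against untreated cells (−0.57 to 0.35 for TLR4, −0.032 to 0.097 for MYD88, −0.095 to 0.027 for TIRAP, −0.054 to 0.71 for CD14) and TSPAN7 IgA against BDNF IgA (−0.068 to 0.062 for MYD88, −0.31 to 0.15 for IRAK3, −0.28 to 0.0058 for TLR3). With scaling by library size alone, IRAK1 had −0.14 for IgA against untreated cells and MYD88 −0.011 for TSPAN7 IgA against BDNF IgA, and genes called for IgA against IgG numbered 873 higher and 3631 lower (1001 and 3296 against untreated cells), where the median gene shifted by −0.23 and −0.21. The TIRAP call for IgA against IgG was lost in the fit of 6 libraries only (−0.92, edgeR adjusted p = 0.0984), which left 1 of the 10 genes lower. With 1 library left out, the numbers of the 10 genes called ranged from 1 to 2 lower for IgA against IgG, from 2 to 3 higher and 1 to 2 lower for IgA against untreated cells, from 1 to 2 higher for BDNF IgA, from 0 to 3 higher for TSPAN7 IgA, and from 0 to 1 in each direction between the antibodies. Over all genes, leaving out 1 library gave 1339 to 2520 higher and 1227 to 2766 lower for IgA against IgG, 1365 to 2512 and 1236 to 2717 for IgA against untreated cells, 429 to 1505 and 293 to 1293 for BDNF IgA, 429 to 689 and 328 to 682 for TSPAN7 IgA, and 196 to 1554 and 286 to 1722 between the antibodies. The causes were not tested. In the fit of 6 libraries only, genes called numbered 1326 lower for IgA against IgG, 1168 lower for TSPAN7 IgA against untreated cells and 427 higher for TSPAN7 IgA against BDNF IgA, where the 9-library fits gave 2095, 764 and 641. For IgG against untreated cells 2 genes were called lower with no filter. Replicate numbers were shared between groups. Same-numbered libraries deviated together weakly or not at all (correlations from −0.063 to 0.19), so the numbers were not taken to pair libraries. In 9 of 18 checks a library correlated best with the library of its own number, so some pairing remains possible. With the replicate block 2 genes of the 10 rose and 2 fell for IgA against IgG, 2 rose and 1 fell for IgA against untreated cells, and 1 and 2 rose for BDNF IgA and TSPAN7 IgA. The UNC93B1 call for TSPAN7 IgA was lost with the block (0.24, edgeR adjusted p = 0.0504) and with library size alone (0.25), and the TLR3 call for BDNF IgA (0.41) and the TAB2 call for IgA against IgG (0.35) with 6 libraries only. TAB2 was also lost with library size alone (0.10). Depth limited TLR2, TLR4, LY96 and CD14, all with few counts.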
